A study of Caenorhabditis elegans with 4 samples.

Results

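The 32 pan-neuronal and synaptic genes of Caenorhabditis elegans described here were chosen by name, for known roles in vesicle release, neuropeptide processing, axonal transport and signalling in neurons. They were set against all 19973 protein-coding genes on the 6 nuclear chromosomes, of which they are part. ChIP-seq, in which DNA bound to a protein is recovered with an antibody and sequenced, was done against tagged UNC-62, a TALE homeodomain protein related to MEIS and Homothorax. Whole L3 larvae of mixed sex of strain OP600 were used in 4 biological replicates, and the labels give no other group. Every replicate carried the unc-119(ed3) mutation and the integrated transgene wgIs600, which joins unc-62 to TY1, EGFP and FLAG tags and brings an unc119 gene as rescue. The mutated and rescued gene is itself 1 of the 32, and the binding measured is that of a transgene product in 1 strain. Replicates 1 and 2 are labelled with fragments of 150 to 350 bp and the stock centre CGC as source, and replicates 3 and 4 with microtip sonication and the laboratory itself; these are the 2 label sets. With 1 group, no control group, and genes chosen with earlier results known, counts were set beside those of all protein-coding genes and no test of them was made.

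Neurons signal by fusing vesicles with the presynaptic membrane. SNARE proteins draw the membranes together, active zone scaffolds hold vesicles and calcium channels at the release site, and Rab GTPases direct vesicle traffic. Neuropeptides are cut from precursors inside dense core vesicles, and kinesins carry both kinds of vesicle along the axon. UNC-62 relatives bind DNA next to PBX-type and Hox partners, and MEIS-type proteins prefer the core TGACAG.

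The authors' optimal list, 1037 peaks, held summits at 7 of the 32 genes, either near a start or inside the gene. A start window ran from 1000 bp upstream to 200 bp downstream of any transcript start. In it, 4 genes (12.5%) had an optimal summit, against 2.63% of all protein-coding genes: unc-108, syd-2, unc-18 and rgef-1. In the gene body, 4 genes (12.5%) had an optimal summit, against 1.37% of all genes: unc-108 again, sng-1, ida-1 and unc-119. Either place was occupied in 21.9% of the 32 genes and in 3.5% of all genes. The larger merged list of 18556 regions holds peaks and background, and the optimal peaks are its regions of highest signal. In it 22 genes (68.8%) had a summit in a start window, against 29.1% of all genes. In the body 24 genes (75%) had one, against 29.3%, and in either place 29 (90.6%), against 43.7%. A merged-list summit is thus not by itself a peak. At the 32 genes the −log10 q-values of these regions ran from 3.42 down to 0.0211. The larvae were processed whole, so binding in few cells and weaker binding in many cannot be told apart, nor can neurons be told from other tissues.

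These genes are long, which gives a summit more room to fall in them. Their median length was 6987 bp (range 940 to 52607), against 2027 bp over all protein-coding genes, and their start windows covered a median of 1820 bp, against 1201 bp. Per megabase of start window, optimal summits numbered 63.5 at the 32 genes and 18.9 at all genes, and merged-list summits 381 and 243. The value of 63.5 rests on 5 summits, 2 of them at unc-108. Per megabase of gene body, the optimal list gave 10.6 summits at the 32 genes and 5.49 at all genes, and the merged list 191 and 161. As a ratio, the gap between the 32 genes and all genes was thus narrower per length than in the share of genes, in both lists and both places. It narrowed most for optimal summits in gene bodies.

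**Figure D1:**
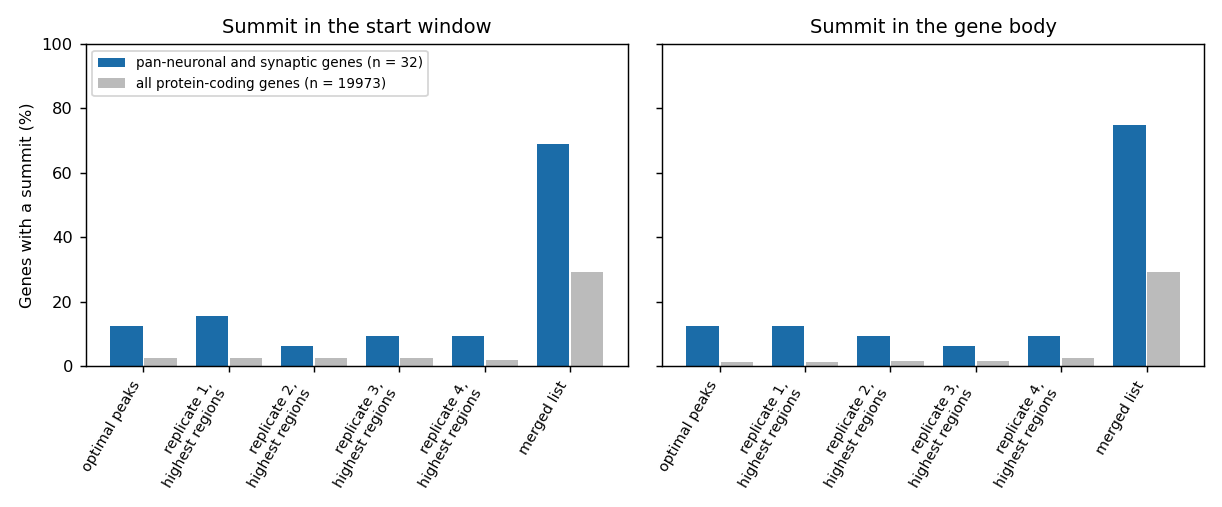
Share of genes (%) with a summit in the start window (left) and in the gene body (right), for the pan-neuronal and synaptic genes (blue) and all protein-coding genes (grey), in the optimal list, in the 1037 highest regions of each replicate and in the merged list. The blue bar is above the grey one in every pair, from 6.25% beside 2.54% in replicate 2 to 68.8% beside 29.1% in the merged list, both for the start window.

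Each replicate was also read alone, through the 1037 nuclear regions of highest signal in its own list, the same number as the optimal peaks. In start windows, 5, 2, 3 and 3 of the 32 genes had such a summit in replicates 1 to 4, a mean of 3.25 ± 1.26 genes (SD, n = 4), or 10.2% ± 3.93. The share of all protein-coding genes was 2.49%, 2.54%, 2.45% and 2.04%. Gene bodies gave 4, 3, 2 and 3 genes, a mean of 3 ± 0.816, beside 1.41%, 1.61%, 1.68% and 2.41% of all genes. Per megabase of start window, the 32 genes had 76.2, 38.1, 50.8 and 38.1 of these summits in replicates 1 to 4, and all genes between 14.4 and 18.3. Those of the 32 genes rest on 6, 3, 4 and 3 summits, in 5, 2, 3 and 3 genes. Per megabase of gene body the direction differed between replicates. The 32 genes had 10.6 and 7.95 summits per megabase in replicates 1 and 2, above the 5.73 and 6.44 of all genes. In replicates 3 and 4 they had 5.30 and 7.95, below the 6.50 and 8.47 of all genes. These values rest on 4, 3, 2 and 3 summits in replicates 1 to 4. In replicates 2, 3 and 4, 1 summit more or less would reverse the direction. The counts of replicates 1 and 2 and those of replicates 3 and 4 overlapped in both places. Recurrence between replicates was then counted. Of the 32 genes, 3 (9.38%) had a start window summit in at least 2 replicates, against 2.25% of all genes, and these were unc-108, syd-2 and unc-18. In at least 1 replicate 7 genes (21.9%) had one, against 5.85%. In gene bodies only unc-108 did so in at least 2 replicates (3.12%, against 1.35%), and 10 genes (31.2%) in at least 1, against 4.71%. Counting every region listed, however weak, 22, 26, 24 and 24 of the 32 genes had a start window summit in replicates 1 to 4, against 41.2%, 38.6%, 38.4% and 36.1% of all genes. In gene bodies it was 26, 27, 28 and 26 genes, against 44%, 47.1%, 44.9% and 45.5% of all genes. In the bars of shares by list, the single replicates ran from 6.25% to 15.6% in start windows, on both sides of the 12.5% of the optimal list.

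The peak of highest signal in a start window or gene body lay at a Rab cycle gene, unc-108 (WBGene00006833). The GTPase UNC-108 is the worm Rab of the kind that acts in dense core vesicle maturation. One peak (chrI:3822666-3823021) lay 39 bp upstream of an unc-108 start, with a signal of 74.9, the authors' value per peak, and rank 174 of the merged list. It ranked 242, 475, 742 and 140 in replicates 1 to 4, so all 4 listed it among their highest 1037. Its signal was 36.2, 12.3, 12.1 and 12.5 in the 4 lists, which have separate scales. The other unc-108 peak (chrI:3824249-3824604; rank 309, signal 61.5) lay in an intron, 520 bp upstream of an internal start. It ranked 324, 353, 340 and 1131, with replicate 4 just outside its highest 1037. The start of a noncoding RNA gene, F53F10.7, lay 854 bp from the summit of the first peak. The other Rab cycle genes had no optimal summit. Their best merged-list regions at a start ranked 2709 for rab-3, the synaptic vesicle Rab, 4022 for aex-3, the exchange factor of RAB-3, and 4537 for ric-19, which acts with UNC-108. The best start ranks of rab-3 were 935 in replicate 1, and 3553, 24910 and 8901 in replicates 2, 3 and 4.

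**Figure D2:**
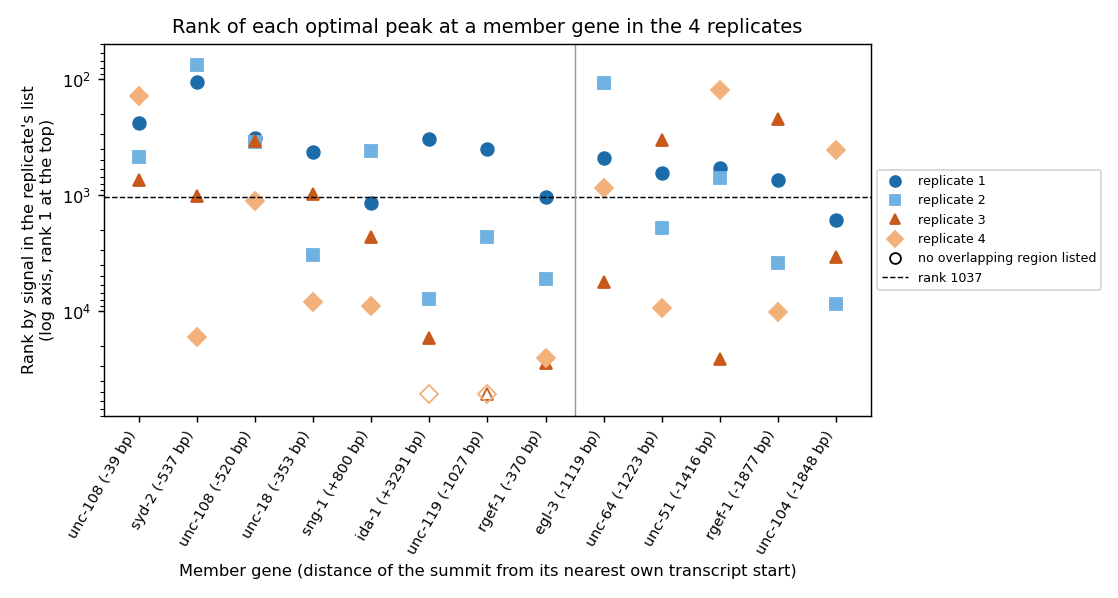
Rank by signal of each optimal peak in the list of each replicate (log axis, rank 1 at the top); the dashed line is rank 1037 and open symbols mark a replicate with no overlapping region. Left of the grey line are the 8 optimal peaks in start windows or gene bodies, right of it 5 optimal peaks farther upstream; the unc-108 peak at -39 bp is the one with all 4 symbols above the line.

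Beyond unc-108, the ranks of the peaks spread widely between replicates, as the plot of ranks by replicate shows. Of the 8 optimal peaks at these genes, 1 was among the highest 1037 regions of 4 replicates, 2 of 3, 1 of 2, 3 of 1 and 1 of none. A replicate counted when such a region shared at least 1 bp with the peak. At syd-2 the region of replicate 3 counted in this way, though its summit lay outside the peak. Each of the 8 had the same merged-list −log10 q-value, 3.42, so only signal ranks them there.

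Of the 9 vesicle fusion genes, 1 had an optimal summit at a start, beside 2.63% of all protein-coding genes. A merged-list summit was there in 6, beside 29.1% of all genes. The gene with the optimal summit was unc-18 (WBGene00006757), whose product binds syntaxin and guides SNARE assembly. The peak (chrX:7682365-7682720; rank 369, signal 57.2) lay 353 bp upstream of a start, with no other gene start within 1000 bp. It ranked 430 and 986 in replicates 1 and 3, and 3303 and 8410 in replicates 2 and 4. The −log10 q-values were 3.55, 2.39, 2.82 and 1.25 in replicates 1 to 4. Replicates of both label sets are thus on each side of rank 1037. The summit base with 50 bases on each side (chrX:7682493-7682593, ce11, the strand of the gene) is shown as that of the optimal peak at a SNARE partner. They and the sequences that follow were read from the RefSeq assembly WBcel235, and capitals mark the summit base in the middle and any TGACAG match.
unc-18: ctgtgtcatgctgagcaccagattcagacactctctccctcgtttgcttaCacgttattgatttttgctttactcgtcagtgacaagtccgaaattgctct

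The other 8 vesicle fusion genes had no optimal summit in window or body. For ric-4, the SNAP-type SNARE, an intronic region came just below the optimal list, with rank 1155 and a signal of 35.1, where the lowest optimal signal was 37.3 and the next signal below it 37.2. The best body ranks of ric-4 were 1685, 534, 9014 and 12213 in replicates 1 to 4. An intronic region of tom-1, the tomosyn that restrains release, had rank 1252 and a signal of 33.8. Its best body ranks were 2370, 3643, 285 and 17523. At starts, tom-1, ric-4, unc-31 (the CAPS factor of dense core release), unc-64 (syntaxin) and snt-1 (synaptotagmin) had best merged-list ranks from 5229 to 17653. The priming factor gene unc-13 had none at a start but 7 in its body, and cpx-1 (complexin) 1 in its body. The synaptobrevin gene snb-1 had no merged-list summit in either place.

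All 4 active zone genes had a merged-list summit at a start, beside 29.1% of all protein-coding genes. The start windows of unc-2 and cla-1 were wide, 8441 and 4804 bp, against a median of 1201 bp over all genes. Only syd-2 had an optimal summit at a start, beside 2.63% of all genes. SYD-2 (gene WBGene00006364) is the liprin scaffold that organises the presynaptic density. Its peak (chrX:10555598-10555953; rank 217, signal 69.6) lay 537 bp upstream of a syd-2 start. The start of a noncoding RNA gene, F59F5.9, lay closer, 32 bp from the summit. In replicates 1, 2 and 3 the ranks were 106, 76 and 1029, and in replicate 4 the rank was 16953, with a −log10 q-value of 0.459. Relative to the optimal summit, the summits of replicates 1 to 4 were offset by -41, 22, -295 and 11 bp in genome coordinates. That of replicate 3 lay outside the peak and outside the window printed below. So the region was near the top in replicates 1 and 2 and low in replicate 4. Its sequence (chrX:10555726-10555826, on the minus strand, the strand of the gene) is shown as that of a peak high in replicates 1 and 2.
syd-2: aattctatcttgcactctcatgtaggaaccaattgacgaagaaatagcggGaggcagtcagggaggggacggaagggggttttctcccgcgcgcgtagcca
With 54.5% G and C, this window was richer than the median optimal window, 47.5%. The calcium channel gene unc-2, the longest of the 32 at 52607 bp, had 3 merged-list summits at starts and 10 in its body, the best of rank 3898. The scaffold genes unc-10 (RIM) and cla-1 (clarinet) had best body ranks of 1811 and 3127.

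Among the 4 genes of vesicle proteins and endocytosis, none had an optimal summit at a start and sng-1 (WBGene00004912), which encodes the vesicle protein synaptogyrin, had one in an intron. The peak (chrX:7328223-7328578; rank 632, signal 46.9) lay 800 bp downstream of the start and 960 bp from that of a noncoding RNA gene, T08A9.17. It ranked 1165, 416, 2314 and 9002 in replicates 1 to 4, so replicate 2 alone had it among its highest 1037. The window (chrX:7328351-7328451, the strand of the gene) held TGACAG, starting 25 bp before the summit. This sequence and the next 2 were added after the values were seen.
sng-1: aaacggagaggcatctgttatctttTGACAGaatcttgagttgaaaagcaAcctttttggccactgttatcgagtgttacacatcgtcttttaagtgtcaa
The clathrin adaptor gene unc-11 and the synaptojanin gene unc-26 had start regions of merged rank 2127 and 1527, below the optimal list. The best start rank of unc-11 was 681 in replicate 1 and 10826 in replicate 4, with no summit there in replicates 2 and 3. For unc-26 the best start ranks were 2317, 19731, 6166 and 3702 in replicates 1 to 4. The endophilin gene unc-57 had 1 merged-list summit, in its body.

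Neuropeptide processing genes numbered 3, and 1 had an optimal summit, in an intron. This was ida-1 (WBGene00002048), which encodes a phosphatase-like membrane protein of dense core vesicles. Its peak (chrIII:5758652-5759007; rank 666, signal 45.8) lay 3291 bp downstream of the start. The ranks were 327, 7937 and 17119 in replicates 1, 2 and 3, and replicate 4 listed no region there. Replicate 1 alone had it among its highest 1037, and the −log10 q-value was 1.07 in replicate 2 and 0.291 in replicate 3. The window (chrIII:5758780-5758880, the strand of the gene) follows.
ida-1: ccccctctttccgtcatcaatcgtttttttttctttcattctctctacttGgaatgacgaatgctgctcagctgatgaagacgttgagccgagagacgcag
The start region of egl-21, the carboxypeptidase that trims neuropeptides, had merged rank 1835. Its best start ranks were 2350, 12124 and 10035 in replicates 1, 2 and 3, with none in replicate 4. The proprotein convertase gene egl-3 had a start region of merged rank 7614. Its best start ranks were 16684, 3170 and 992 in replicates 2, 3 and 4, with none in replicate 1.

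Of the 6 axon transport and cytoskeleton genes, unc-119 (WBGene00006843) had an optimal summit, in an intron, and none had one at a start. UNC-119 is a lipid-binding chaperone, and its promoter is often used as a pan-neuronal driver. The peak (chrIII:10905251-10905606; rank 745, signal 43.6) lay 1027 bp upstream of an internal start. It ranked 403 and 2300 in replicates 1 and 2, and replicates 3 and 4 listed no region there, so the peak was found in the replicates of 1 label set. All replicates carried the rescue gene besides the mutated one. No source used here says how reads from the rescue copy were placed, and its part in this peak was not tested. The window (chrIII:10905379-10905479, the strand of the gene) held TGACAG on the opposite strand, written CTGTCA here, starting 22 bp after the summit.
unc-119: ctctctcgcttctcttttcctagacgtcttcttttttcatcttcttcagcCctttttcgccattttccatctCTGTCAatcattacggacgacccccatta
The ankyrin gene unc-44 had 3 merged-list summits at starts and 6 in its body, with a best rank of 526 in replicate 4 and 8619, 2112 and 2449 at starts in the other replicates. The kinesin gene unc-104 had a start region of merged rank 5469, and unc-33, the CRMP-type cytoskeletal protein, had merged-list regions in its body only. The kinase gene unc-51 and the beta tubulin gene tbb-4 had no merged-list summit in window or body.

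The signalling pair comprised rgef-1 (WBGene00009100), which encodes a neuronal Ras exchange factor, and dkf-2, which encodes a protein kinase D. The rgef-1 start peak (chrV:9561866-9562221; rank 881, signal 40.1) lay 370 bp upstream. It ranked 1047, 5342, 28129 and 25442 in replicates 1 to 4, outside the highest 1037 of each. The −log10 q-values were 3.55, 1.62, 0.0626 and 0.173, so the region was near the foot of the lists of replicates 3 and 4. Its window (chrV:9561994-9562094, the minus strand, the strand of the gene) is given as the sequence of a peak with no replicate behind it at that rank.
rgef-1: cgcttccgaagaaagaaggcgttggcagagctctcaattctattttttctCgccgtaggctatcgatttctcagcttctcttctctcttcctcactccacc
In dkf-2, 6 merged-list summits lay in the body and none at a start, the best with merged rank 5512. Its best body ranks were 10280, 5308, 6039 and 908 in replicates 1 to 4.

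**Figure D3:**
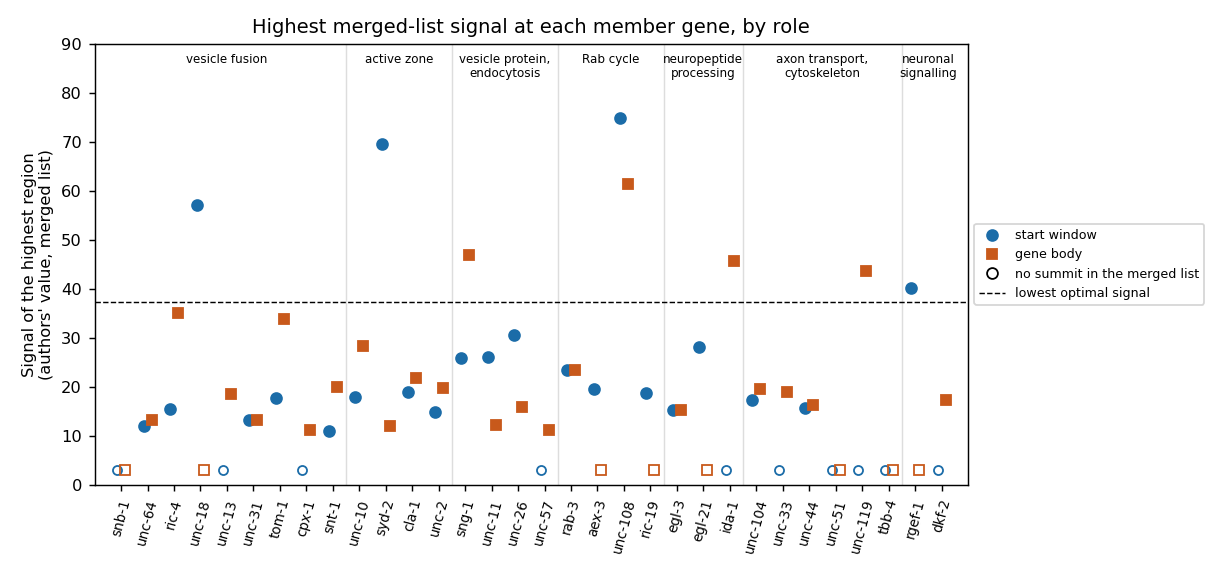
Signal of the highest merged-list region (authors' value) in the start window (circles) and gene body (squares) of each of the 32 genes, by role; open symbols mark no summit and the dashed line is the lowest optimal signal, 37.3. In the start window 4 circles lie above the line and in the body 4 squares, and no role has more than 1 gene with a circle above it.

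The plot of signal by gene and role shows how the optimal summits were scattered. Each of the 7 roles had exactly 1 gene with an optimal summit in window or body. By role, 1 of 9 vesicle fusion genes, 1 of 4 active zone genes, 1 of 4 Rab cycle genes and 1 of 2 signalling genes had it at a start, where 2.63% of all protein-coding genes did; for window or body together the share of all genes was 3.5%. Merged-list summits at starts were present in all 4 active zone and all 4 Rab cycle genes but in 2 of 6 axon transport and cytoskeleton genes, beside 29.1% of all protein-coding genes. Best merged ranks at a start had a median of 4497 over the 22 genes listed, against 7436 over the 5808 protein-coding genes listed. In replicates 1 to 4 the medians were 3054, 8992, 9525 and 11336 at the 32 genes and 11735, 12170, 11961 and 11923 at all genes, so the distance was wide in replicate 1 and small in replicate 4. The start windows of the 32 genes were wider, and the part of that in the ranks was not tested.

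Most merged-list regions at these genes lay in introns. Altogether 87 regions fell in a start window or body, 30 of them in a start window at a median of 428 bp from a start of the same gene. Of those 30, 15 lay outside the gene and 15 in introns, and 10 of the intronic ones were upstream of their nearest start, an internal one, in 8 genes. The remaining 57 comprised 42 in introns, 11 in coding exons and 4 in 3′ UTRs. Of the 72 summits inside the gene bodies, 79.2% were in introns, against 63% of those in all protein-coding genes. The 4 optimal body summits were all intronic, against 82.2%. The 6 genes with at least 5 body summits (unc-2, unc-13, dkf-2, unc-44, cla-1 and ida-1) held 39 of the 72. Their lengths ran from 10278 bp (ida-1) to 52607 bp (unc-2), so they also held much of the gene body length. Some genes longer than ida-1 had fewer body summits, such as unc-104 (15639 bp) with 2 and tom-1 (15572 bp) with 3. No test of summit number against length was made. Median signal was 15.4 over the 87 regions and 14.2 over the merged list.

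Several optimal peaks stood upstream of these genes but outside the start window; they were picked out after their positions were seen. With the window drawn out to 2000 bp upstream, 9 of the 32 genes had an optimal summit, against 3.82% of all protein-coding genes. The further genes were egl-3, unc-64, unc-51, unc-104 and, by its internal start, unc-119. The egl-3 peak (chrV:10174694-10175049; rank 353, signal 58.3) lay 1119 bp upstream and ranked 482, 109, 5649 and 864 in replicates 1 to 4. At unc-64 the peak (chrIII:13275857-13276212; rank 532, signal 49.9) lay 1223 bp upstream and ranked 644, 1935, 336 and 9412. That of unc-51 (chrV:20005723-20006078; rank 558, signal 49.2) lay 1416 bp upstream and ranked 587, 710, 26186 and 125. Replicates of both label sets thus had the egl-3, unc-64 and unc-51 peaks among their highest 1037. A rgef-1 peak 1877 bp upstream (rank 729 of the merged list) ranked 741, 3836, 222 and 10249, in 2 replicates' highest regions where the nearer rgef-1 peak was in none. The unc-104 peak, 1848 bp upstream (rank 917, signal 39.4), ranked 1633, 8688, 3455 and 412. For all 5 peaks the nearest protein-coding start was that of the named gene.

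Within 5000 bp of a start on either side, 14 of the 32 genes (43.8%) had an optimal summit, against 8.69% of all protein-coding genes. The additional genes were sng-1 and ida-1, whose peaks are described above, and snb-1, ric-4 and ric-19. The snb-1 peak (rank 945, signal 38.9) was 2457 bp upstream and in no replicate's highest regions, with ranks of 12850, 1314, 1740 and 23993. The ric-4 peak (rank 195, signal 72.1) was 3846 bp upstream, ranked 144, 767, 2171 and 456, and was nearer to the start of Y22F5A.11, at 1486 bp. The ric-19 peak (rank 844, signal 41.1) was nearer to tppp-1, at 1036 bp. Beyond that distance, a peak of rank 132 and signal 82.7 lay past the end of snt-1, 10341 bp from its nearest start; it ranked 143, 406, 197 and 124, and no protein-coding start was nearer than that of snt-1. The median distance from a start to the nearest optimal summit was 12771 bp at the 32 genes and 46456 bp at all protein-coding genes. It was longest at unc-31 (348085 bp) and unc-33 (222142 bp).

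**Figure D4:**
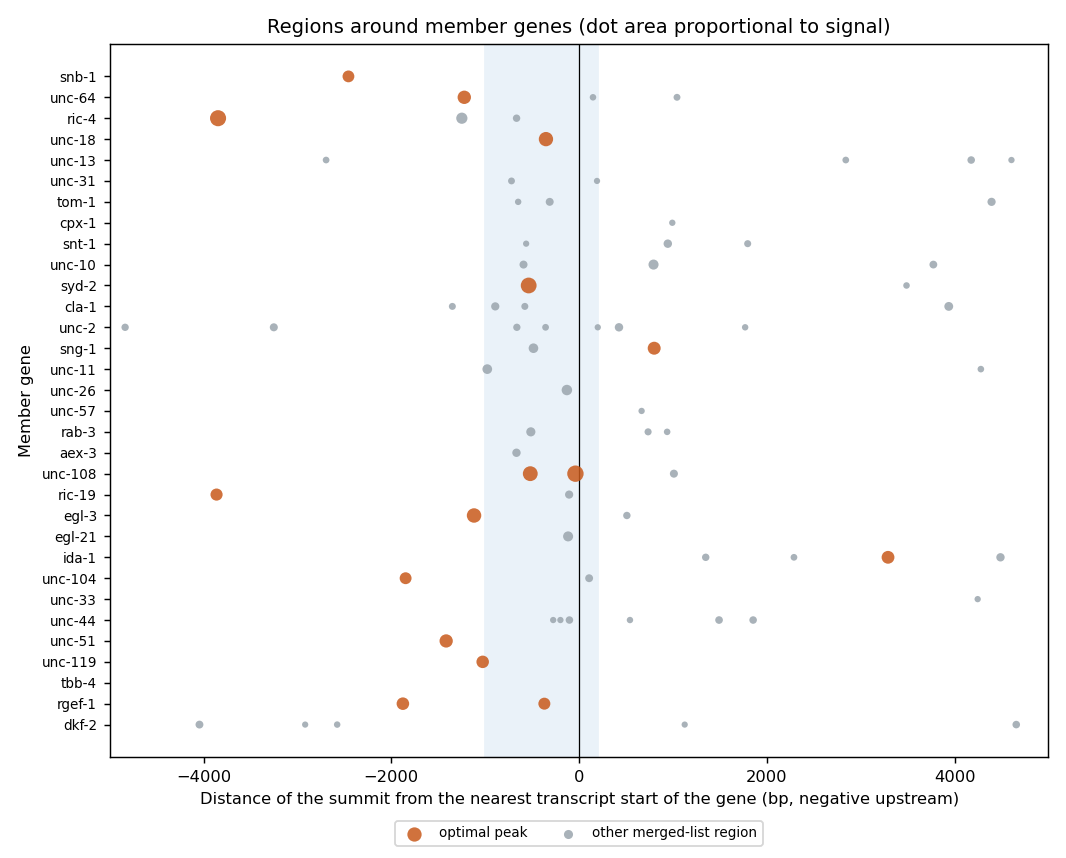
Distance of each summit from the nearest transcript start of the gene (bp, negative upstream), 1 row for each of the 32 genes, with dot area proportional to the authors' signal; the pale band is the start window, orange dots are optimal peaks and grey dots other merged-list regions. Outside window and gene body only optimal peaks are drawn, and 18 regions beyond 5000 bp are left out; the grey egl-3 dot lies in the window of a start farther off than its nearest one. Orange dots are present at 14 genes, most of them upstream of the start.

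The map of summit distances places these peaks against the starts, and the free sequence upstream of the genes differed as well. The gap to the next protein-coding gene upstream had a median of 3748 bp at the 32 genes (range 427 to 14273) and 937 bp at all protein-coding genes, and it reached 2000 bp in 75% of the 32 and 31.5% of all. Among genes with a gap of at least 2000 bp, 11 of the 24 synaptic and pan-neuronal genes had an optimal summit within 5000 bp, against 10.6% of all such genes. Among those with a smaller gap it was 3 of 8, against 7.8%. The part of gene length and of the gap in the counts was not tested further.

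The 50 bases on each side of every summit were read, on either strand, for the letters of 6 motifs. They were the MEIS core TGACAG, the PBX and Hox site TGATTGAT, the looser form TGATNNAT (which includes every TGATTGAT), the repeat GAGAGAGA, the E-box CACGTG and the homeodomain core TAATTA. The MEIS core lay at 2 of the 8 optimal summits of the 32 genes, those of sng-1 and unc-119 printed above, and at 10.1% of all optimal summits. In the 87 merged-list regions of these genes it lay at 6.90%, against 5.39% of the whole merged list. TGATTGAT lay at none of the 8 and at 3.57% of all optimal summits, and at 3.45% of the 87 regions against 1.28%. For TGATNNAT these were none of the 8 beside 13.1%, and 11.5% beside 8.95%. CACGTG lay at 1 of the 8, beside 4.34% of all optimal summits, and at 3.45% of the 87 regions against 2.16%. GAGAGAGA lay at none of the 8, beside 9.55%, and at 2.30% of the 87 regions against 2.38%. The homeodomain core also lay at none of the 8, beside 1.25%, and it was at 9.20% of the 87 regions, against 4.28% of the merged list. With 8 optimal summits, 1 match more or less is a large share, and a missing match says only that those letters are not in the window.

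Further genes of the same processes, in lists written with earlier results known, were counted for optimal summits at a start. Of 15 further vesicle cycle genes 2 had one, rbf-1 (rabphilin; rank 991) and rab-5 (the early endosomal Rab; rank 260). Of 20 synapse assembly genes 3 had one, ccb-1 (calcium channel beta subunit; rank 677), unc-16 (JIP-type transport adaptor; rank 320) and unc-76 (FEZ-type axonal protein; rank 200). The unc-76 peak ranked 1002, 73, 61 and 47 in replicates 1 to 4 and was thus in the highest regions of all 4. Those of rab-5 were 368, 667, 264 and 6736, and those of unc-16 443, 331, 626 and 8037. These ranks are of any region with a summit in the start window, not only one at the optimal peak. None of 16 genes of transmitter synthesis and transport and none of 11 further dense core vesicle genes had an optimal summit at a start, where 2.63% of all protein-coding genes did. In lists this short, a count of none is close to that share. Body wall muscle genes, taken as another tissue, had 2 of 24, unc-112 (kindlin; rank 855) and unc-60 (cofilin; rank 566). In the merged list the counts at starts were 6 of 16 transmitter genes, 10 of 15 vesicle cycle genes, 13 of 20 assembly genes, 4 of 11 dense core genes and 16 of 24 muscle genes. The merged-list share was thus 68.8% in the 32 genes and 66.7% in the muscle genes, both above the 29.1% of all protein-coding genes. Whether any of these lists differs from another was not tested.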

How the data were processed

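UNC-62 ChIP-seq regions of 4 replicates of 1 group were read from lists on ce11. The authors deposited a list of peaks and background per replicate (30000, 30000, 30000 and 28073 regions). They also deposited a merged list of peaks and background (18556 regions) and an optimal list of 1037. Per the deposited notes, the merged list was derived from aligned reads of every replicate plus a control. The optimal list was then thresholded by reproducibility, from the merged and single lists. Each region has the authors' signal score and −log10 q-value, in the deposited columns. The aligner and the peak caller were not given in the sources used here. The lists hold no read counts, so depth is unknown. Signal scales differ between lists, so replicates were compared by rank only, and a replicate's rank at a peak is that of its highest region sharing at least 1 bp. A best start or body rank is that of the highest region with its summit in the start window or gene body. It can come from a different region in each replicate. Columns of per-sample values left out numbered 0.

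Genes and starts came from Ensembl release 115 (WBcel235), and all 32 matched by symbol. A summit counted when it lay in the start window or between the ends of the gene. The 1037 highest nuclear regions of each replicate were used; 0, 0, 29 and 30 mitochondrial regions were passed over. The counting was tested on simulated data. Python 3.11.15, pandas 2.3.3, numpy 2.4.6 and matplotlib 3.10.9 were used.

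Named in full were all genes with an optimal summit in window or body, with other gene starts within 1000 bp; named with a rank were the 5 next best at a start, those in 2 or more replicates and those with no merged-list region. The genes and lists were chosen with earlier results of these data known. Of 87 further genes, 1 (rab-27) was not matched by symbol. Alternatives changed the window, the summit rule, the starts used, the lists and the replicates. Replicates are biological per the labels; whether they are separate cultures is not stated further.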

Additional observations from a re-analysis of the deposited data

Results flagged for a closer look

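The 28 sets of 4 replicate values examined were mostly ranks, with some counts and shares of genes called. Sets in which a replicate listed no region were left out. In 9 sets, all of ranks, 1 replicate was set apart from the other 3 by a gap that takes up nearly the whole range. Chance flags about 1 in 20 groups of values that follow a normal distribution; ranks do not, their own chance rate was not measured, and no excess over chance is claimed. Replicate 4 was the one apart in 5 of them. It ranked the syd-2 peak at 16953 and the intronic unc-108 peak at 1131. Its best start ranks were 18067 for rbf-1, 6736 for rab-5 and 8037 for unc-16. Each of these was a larger rank number than in the other replicates. Replicate 3 was apart at ccb-1 (best start rank 19199), at the egl-3 peak upstream of the start window (5649) and at the unc-51 peak upstream of it (26186). Replicate 1 was apart at unc-76, with a best start rank of 1002 where the others had 73, 61 and 47. The part of fragmentation, which the labels give differently for replicates 1 and 2 and replicates 3 and 4, was not tested.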

How the results depend on the processing

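In all 48 settings the share of the 32 genes with a summit was above that of all protein-coding genes, given in brackets below. Per megabase of gene body the 32 genes were below all genes in replicates 3 and 4, where 1 summit more would reverse this. The numbers of genes depended on the window. Of 43 alternative values, 33 stayed within 1.5 times the main value and 10 did not. The 4 genes with an optimal summit at a start were 9 with 2000 bp upstream (3.82%) and 14 within 5000 bp on either side (8.69%), and from 3 to 6 otherwise. The 22 genes with a merged-list summit at a start were 13 with 500 bp upstream (21.4%) and 12 with the 5000 regions of highest signal (10.9%). The 4 genes with an optimal body summit were 1 with the 518 optimal peaks of highest signal (0.686%) and 1 with peaks in the highest regions of at least 2 replicates (1%). The replicate mean of 3.25 genes was 7 with 2000 bp upstream (3.53%) and 2 with the highest 518 regions (1.24%), the second within the SD of 1.26 between replicates. The 3 genes called in at least 2 replicates were 9 with 2000 bp upstream (3.36%) and 5 when any base of a region counted (2.55%). With a replicate left out, the mean ran from 2.67 to 3.67 and the count in at least 2 replicates from 2 to 3. The distance of 5000 bp and leaving out unc-119 (3 genes with a body summit) were chosen after seeing the data. So was limiting the optimal peaks to those in the highest regions of at least 2 replicates. The optimal list could not be recomputed with a replicate left out. No paired analysis was possible because there is 1 group. The lists hold no counts, so what depth limits cannot be stated. Weak regions in replicates 3 and 4 and in the merged list had −log10 q-values near 0. The cause of the spread in rank was not tested.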

Other observations

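The neuronal lists differed in the share of genes with a merged-list summit at a start. Of the genes of transmitter synthesis and transport, which set the chemical identity of a neuron, 37.5% (6 of 16) had one. Of the dense core vesicle genes 36.4% (4 of 11) did. The share was 66.7% of further vesicle cycle genes and 65% of synapse assembly genes, close to the 68.8% of the 32 pan-neuronal and synaptic genes. It was also 66.7% (16 of 24) of body wall muscle genes, so a high share was not particular to neuronal lists. Among all protein-coding genes it was 29.1%. No test was made between lists.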
